A study of Mus musculus with 6 samples.

Results

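Of the 22651 genes in each deposited table, 8 encode the Dlx and subpallial patterning transcription factors described here, namely Dlx1, Dlx2, Dlx5, Dlx6, Gsx2, Nkx2-1, Lhx6 and Lhx8. They were chosen by gene symbol and each was found in all 6 tables. mRNA was sequenced from the telencephalon, which comprises cortex and basal ganglia, of newborn mice (postnatal day 0), 3 of them wild-type (WT) and 3 with a conditional Tsc1 knockout (TSC1). The WT mice were TSC1 flox/flox;Emx1 +/+ littermates without Cre and the TSC1 mice were TSC1 flox/flox;Emx1-cre/+, so that both groups carried the floxed gene on both chromosomes. Cre expressed from the Emx1 locus removed exons 17 and 18 of Tsc1 in the embryonic dorsal cortex, whereas the 8 genes are known mainly from the subpallium. Each table came from 1 mouse and the labels name no treatment.

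The subpallium is the ventral territory of the embryonic telencephalon, and it bulges into the ventricle as the lateral, medial and caudal ganglionic eminences. Gsx2 specifies progenitors of the lateral ganglionic eminence, which makes striatal projection neurons and olfactory bulb interneurons. Nkx2-1 specifies the medial eminence and acts upstream of a pair of LIM-homeodomain factors, Lhx6 in interneurons that migrate to the cortex and Lhx8 in cholinergic neurons and the ventral pallidum. The Dlx genes act after both regional programmes, in nearly all subpallial precursors, and drive GABAergic differentiation and tangential migration.

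The depth was 14119365 to 17772865 expected counts per library (read numbers assigned to genes by RSEM), and 3 counts in a gene correspond to 0.169 to 0.212 CPM. Tsc1 itself was at 28.4 to 50.2 TPM (transcript abundance corrected for length and scaled to a fixed total per library) in WT and at 21.7 to 27.1 TPM in TSC1, without overlap (edgeR log2 fold change -0.66, standard error 0.175, adjusted p = 0.1); gene totals do not separate the deleted exons. Emx1, a factor of the dorsal telencephalon, was at 36.2 to 47.4 TPM in all libraries. TSC1 replicate 3 stood apart from TSC1 replicates 1 and 2 on the first principal component of log2 CPM, at -3.95 against 26.5 and 30.3, with the WT libraries between -26.3 and -7.43. Calls of the 8 genes that changed without that library are given beside each gene.

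All 8 genes had lower mean levels in TSC1 than in WT, and 2 of them, Dlx1 and Lhx6, passed the test as down-regulated (edgeR's quasi-likelihood test, Benjamini-Hochberg adjusted p below 0.05 over the 13969 genes tested). All 8 passed the filter on low counts. Over all genes tested, 0.659% were called lower. None of the 8 was called higher (background 0.859%), and at an unadjusted p below 0.05, 6 were lower and 0 higher, against 8.93% of all genes lower at that level. DESeq2 called 4 of the 8 lower (background 2.2%), limma on log2(TPM + 1) called 2 lower (background 0.988%), and edgeR without TSC1 replicate 3 called 7 lower (background 3.06%), all but Gsx2. The TPM of the groups did not overlap for 6 of the 8 genes, all lower in TSC1, where 10.3% of all genes tested were lower without overlap. The median log2 fold change of the 8 genes was -0.88 and that of all genes tested was -0.00267. In tissue of this kind, fewer cells of a type and less RNA per cell cannot be told apart.

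**Figure D1:**
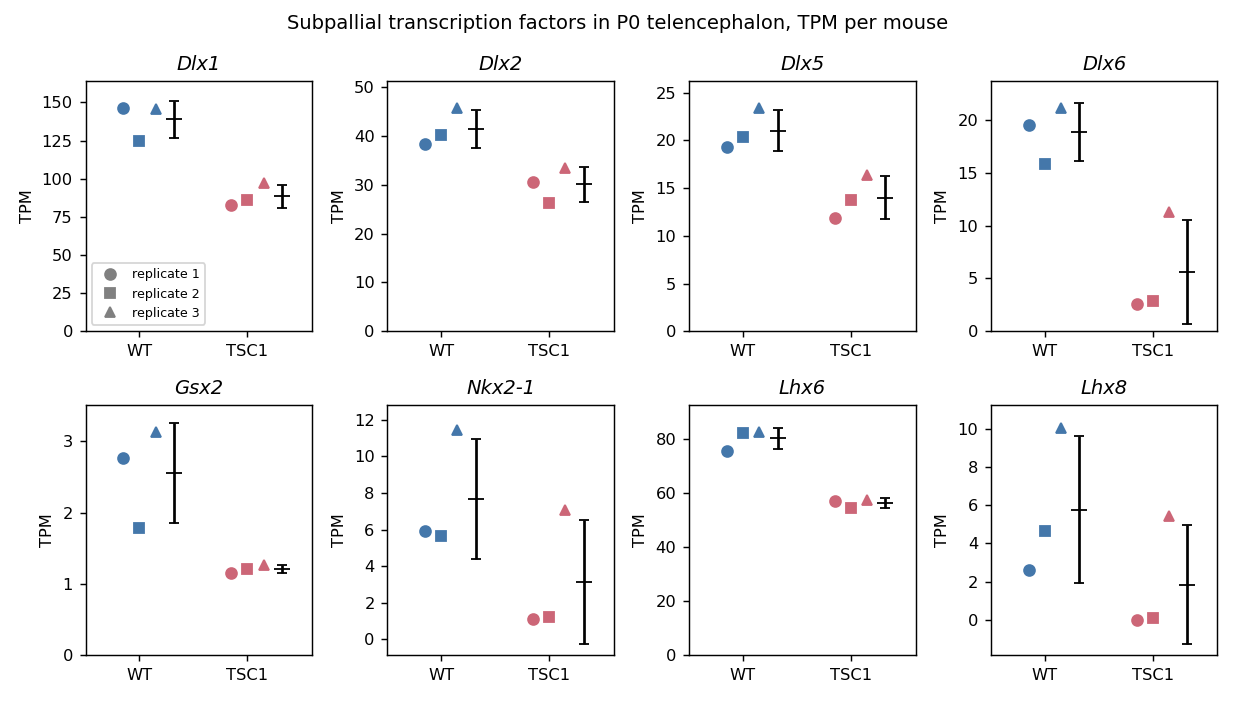
TPM of each gene (vertical axes, linear) in 3 WT and 3 TSC1 mice, with marker shape for the replicate number and bars for mean ± SD. In Dlx6, Nkx2-1 and Lhx8 TSC1 replicate 3 lies far above TSC1 replicates 1 and 2, while in Lhx6 the 3 TSC1 mice lie between 54.4 and 57.6 TPM.

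The promoter of Lhx6 is shown because the gene was called, that of Dlx2 because it shares a locus with the other called gene, Dlx1, and that of the non-coding gene Dlx6as1 because it stands for the Dlx5 and Dlx6 locus. RefSeq entries (GRCm38.p6) were matched for 6 of the 8 genes, with 8 start sites, and Dlx5 and Dlx6 were not among them. The windows hold the 250 bases before a RefSeq start and are written along the gene. That of Dlx6as1 precedes an internal start, the first of 2 listed, and lies within the span of a longer transcript of the gene. Capitals mark matches on either strand to TAATTA, the palindromic site of homeodomain proteins, CAGCTG, an E-box read by proneural factors, CAAGTG, the core of NK2 factors, or TATAAA, the TATA box. No match overlapped another in the windows shown.
Dlx2, chr2:71546755-71547004, minus strand: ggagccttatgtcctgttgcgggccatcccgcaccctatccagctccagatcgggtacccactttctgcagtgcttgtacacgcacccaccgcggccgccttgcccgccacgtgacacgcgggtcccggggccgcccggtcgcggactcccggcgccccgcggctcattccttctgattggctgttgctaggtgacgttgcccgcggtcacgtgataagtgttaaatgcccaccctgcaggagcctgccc
Lhx6 (first of 3 start sites), chr2:36105409-36105658, minus strand: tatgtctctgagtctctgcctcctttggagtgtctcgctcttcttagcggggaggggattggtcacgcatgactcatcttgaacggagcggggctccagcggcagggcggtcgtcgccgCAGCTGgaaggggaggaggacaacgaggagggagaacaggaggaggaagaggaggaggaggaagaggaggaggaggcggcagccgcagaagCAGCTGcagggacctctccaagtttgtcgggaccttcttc
Dlx6as1 (Dlx6os1 in RefSeq), chr6:6869534-6869783, minus strand: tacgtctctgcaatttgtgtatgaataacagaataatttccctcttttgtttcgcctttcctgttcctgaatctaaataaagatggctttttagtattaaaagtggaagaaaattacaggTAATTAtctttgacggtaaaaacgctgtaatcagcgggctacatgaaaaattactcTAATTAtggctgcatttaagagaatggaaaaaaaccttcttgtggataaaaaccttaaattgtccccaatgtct

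TAATTA occurred in 0 of the 8 windows of members and 2 times in the Dlx6as1 window shown (the window of the other start held 1), and it was in 4.84% of the 32851 windows of all genes. CAGCTG was in 1 of the 8 windows, at Lhx6, against 13.0% of all windows, TATAAA was in 1, at Gsx2, against 12.4%, and CAAGTG was in 0 against 11.6%. These matches are descriptions of letters and not of binding, and the absence of a match says only that the letters are not in the window.

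Dlx1 and Dlx2 are neighbours on chromosome 2, transcribed towards each other with 9426 bases between them in the GENCODE annotation of GRCm38 (Dlx1 at chr2:71528113-71533981 on the plus strand, Dlx2 at chr2:71543408-71546754 on the minus strand). Both encode homeodomain factors and share enhancers in the forebrain. Dlx1 was at 146, 125 and 145 TPM in WT replicates 1, 2 and 3 and at 82.6, 85.9 and 97.0 TPM in TSC1 replicates 1, 2 and 3. Every TSC1 mouse was below every WT mouse, and Dlx1 was down-regulated with a log2 fold change of -0.68 ± 0.0957 (SE), at an adjusted p of 0.0183 in edgeR. The call was lost without WT replicate 3 (edgeR adjusted p = 0.0762), without TSC1 replicate 1 (0.12) and without TSC1 replicate 2 (0.0982).

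Dlx2 was at 38.5, 40.2 and 45.8 TPM in the WT mice and at 30.5, 26.3 and 33.5 TPM in the TSC1 mice, so the groups again did not overlap. Its log2 fold change was -0.49 (standard error 0.124, edgeR adjusted p = 0.0862), which did not pass, while DESeq2 gave an adjusted p of 0.0186. Without TSC1 replicate 3 the edgeR adjusted p was 0.0307. The ratio of Dlx1 to Dlx2 TPM within a library ranged from 2.7 to 3.81 and overlapped between the groups.

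The non-coding gene Dlx1as is transcribed on the strand opposite Dlx1, and 335 of the 5396 exonic bases of Dlx1 in GENCODE are also exonic in Dlx1as. The library kit kept no strand, so reads from the shared bases cannot be told apart. Dlx1as was at 106 to 115 TPM in WT and at 68.9 to 76.1 TPM in TSC1, and it was down-regulated with a log2 fold change of -0.67 ± 0.077 (SE) at an edgeR adjusted p of 0.00519. The ratio of Dlx1 to Dlx1as TPM averaged 1.24 over the WT mice, with an SD of 0.0617, and 1.24 over the TSC1 mice, with an SD of 0.0389.

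Dlx5 and Dlx6 form the second pair, on chromosome 6 (Dlx6 at chr6:6863334-6868568 on the plus strand and Dlx5 at chr6:6877805-6882085 on the minus strand), with 9236 bases between them. Dlx5 was at 19.3, 20.4 and 23.4 TPM in the WT mice and at 11.9, 13.7 and 16.4 TPM in the TSC1 mice. The groups did not overlap, but the log2 fold change of -0.62 did not pass (standard error 0.170, edgeR adjusted p = 0.107). Without TSC1 replicate 3 it was -0.76 and passed (edgeR adjusted p = 0.0394).

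Dlx6 had the lowest fitted log2 fold change of the 8 genes, at -1.75 (standard error 0.455, edgeR adjusted p = 0.0925). It was at 19.6, 15.9 and 21.2 TPM in WT replicates 1, 2 and 3. In the TSC1 mice it was at 2.56, 2.89 and 11.3 TPM, so all 3 were below the WT range, replicate 3 by less than the others. The expected counts behind these TSC1 values were 14, 15 and 67, against 107 to 116 in WT. DESeq2 called Dlx6 (log2 fold change -1.77, adjusted p = 0.00291), as did edgeR without TSC1 replicate 3 (-2.83, adjusted p = 0.000613).

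The proportion of Dlx6 to its partner differed between the mice. The ratio of Dlx6 to Dlx5 TPM was 1.01, 0.778 and 0.904 in the WT mice and 0.216, 0.21 and 0.687 in the TSC1 mice. The groups did not overlap in this ratio, which is given as a description with no test. The long non-coding gene Dlx6as1, also known as Evf2, a transcript that regulates enhancer use at this locus, was at 34.1 to 42.9 TPM in WT and at 21.1 to 25.6 TPM in TSC1 and was down-regulated with a log2 fold change of -0.79 ± 0.121 (SE) at an edgeR adjusted p of 0.0214. The ratio of Dlx5 to Dlx6as1 was 0.494 to 0.597 in WT and 0.553 to 0.65 in TSC1, whereas that of Dlx6 to Dlx6as1 was 0.465 to 0.501 in WT and 0.119, 0.137 and 0.44 in TSC1. Dlx6 lies within the span of Dlx6as1 on the other strand, but the RefSeq-matched Dlx6 transcript, of 1071 bases, shares 0 exonic bases with that of Dlx6as1.

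**Figure D2:**
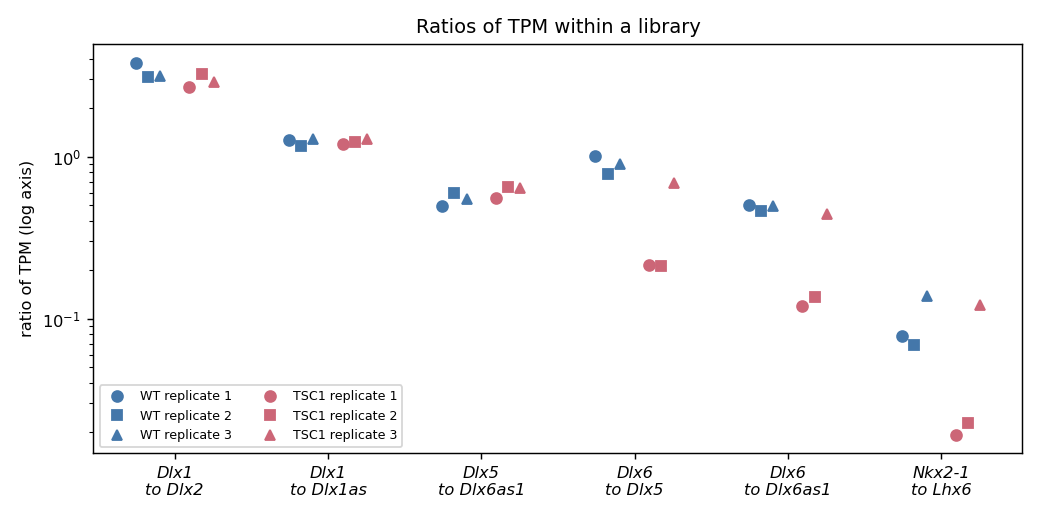
Ratios of TPM between 2 genes of 1 library (vertical log axis) for 3 WT and 3 TSC1 mice. Dlx1 to Dlx2, Dlx1 to Dlx1as and Dlx5 to Dlx6as1 overlap between the groups, while both ratios with Dlx6, and that of Nkx2-1 to Lhx6, are lowest in TSC1 replicates 1 and 2.

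The genes ahead of the Dlx step were lower in abundance. Gsx2 (chr5:75075601-75077893, plus strand) was at 2.77, 1.78 and 3.14 TPM in the WT mice and at 1.15, 1.21 and 1.27 TPM in the TSC1 mice. These levels rest on 19 to 27 expected counts per library in WT and 10 to 12 in TSC1. The groups did not overlap, and the log2 fold change of -1.09 had a standard error of 0.319 (edgeR adjusted p = 0.122). Gsx2 passed in none of the 15 alternative fits, with adjusted p from 0.098 to 0.336.

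Nkx2-1 (chr12:56531958-56536908, minus strand) was at 5.91, 5.67 and 11.5 TPM in the WT mice and at 1.1, 1.24 and 7.05 TPM in the TSC1 mice. TSC1 replicate 3 lay above WT replicates 1 and 2, so the groups overlapped. The log2 fold change was -1.23 (standard error 0.598, edgeR adjusted p = 0.319). Without TSC1 replicate 3 it was -2.64 and passed (edgeR adjusted p = 0.00724).

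Lhx6 (chr2:36081953-36105408, minus strand) marks interneurons derived from the medial eminence. It was at 75.7, 82.2 and 82.8 TPM in the WT mice and at 57.2, 54.4 and 57.6 TPM in the TSC1 mice, with the narrowest spread within TSC1 of the 8 genes (coefficient of variation 3.11%). Lhx6 was down-regulated with a log2 fold change of -0.54 ± 0.0798 (SE), at an adjusted p of 0.0203 in edgeR. It did not pass without WT replicate 2 (edgeR adjusted p = 0.125), WT replicate 3 (0.0963), TSC1 replicate 1 (0.134) or TSC1 replicate 2 (0.116).

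Lhx8 (chr3:154306294-154330659, minus strand), needed for the cholinergic neurons of the basal forebrain and striatum, had the widest spread. It was at 2.59, 4.64 and 10.04 TPM in the WT mice. In TSC1 it had 0 expected counts in replicate 1, 1 count in replicate 2 and 61 counts in replicate 3, which is 5.42 TPM and inside the WT range. A floor of 3 counts in a library corresponds to 0.29 TPM in TSC1 replicate 1 and 0.305 TPM in TSC1 replicate 2, so Lhx8 was not detected there at this depth. The log2 fold change over 6 libraries was -1.60 (standard error 0.975, edgeR adjusted p = 0.427), and without TSC1 replicate 3 Lhx8 passed (edgeR adjusted p = 0.0102).

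**Figure D3:**
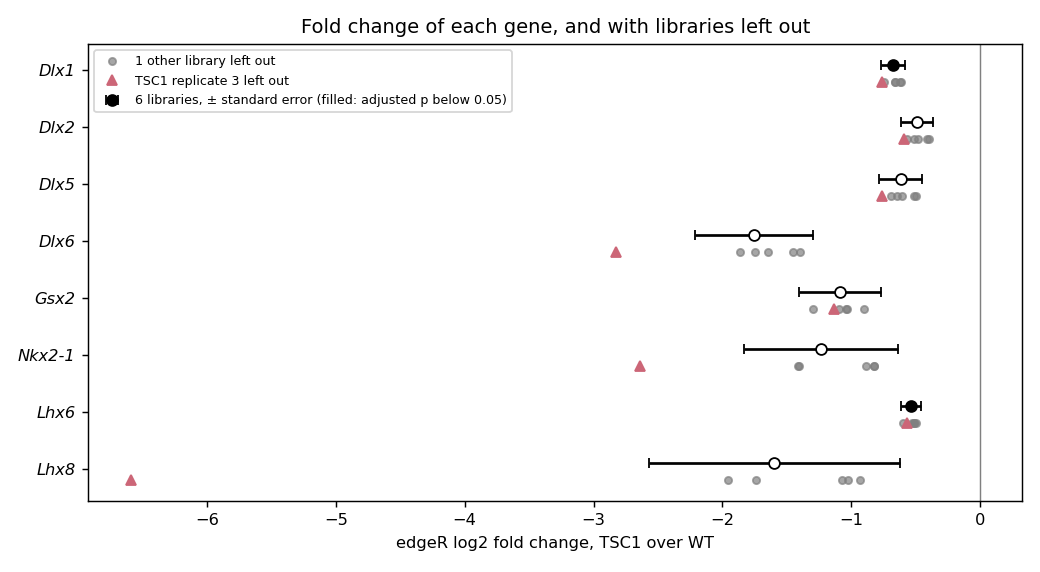
edgeR log2 fold change of each gene, TSC1 over WT (horizontal axis), with its standard error from 6 libraries and the estimates with 1 library left out. Triangles without TSC1 replicate 3 lie far to the left for Dlx6, Nkx2-1 and Lhx8, where the value of Lhx8 rests on 0 and 1 counts in the remaining TSC1 libraries and depends on the prior count.

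In levels per length, the order in WT was Dlx1 (139 TPM), Lhx6 (80.2), Dlx2 (41.5), Dlx5 (21.0), Dlx6 (18.9), Nkx2-1 (7.68), Lhx8 (5.76) and Gsx2 (2.56). Dlx5 and Dlx6 overlapped over the 3 WT mice, as did Nkx2-1 with Lhx8 and Lhx8 with Gsx2. The order of the means was the same in TSC1, but there Dlx5 and Dlx6 (5.57 TPM) no longer overlapped, and Dlx6 overlapped with Nkx2-1 (3.13 TPM).

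Lateral and pan-subpallial genes were set against medial ones by their mean log2 CPM (counts scaled to library size). The mean log2 CPM of Dlx1, Dlx2, Dlx5, Dlx6 and Gsx2 was 3.81, 3.67 and 4.05 in the WT mice and 2.65, 2.74 and 3.29 in the TSC1 mice. That of Nkx2-1, Lhx6 and Lhx8 was 3.21, 3.57 and 4.28 in WT and 1.04, 1.33 and 3.56 in TSC1. The difference of these log2 levels, lateral and pan-subpallial less medial, was 0.6, 0.1 and -0.23 in WT and 1.61, 1.41 and -0.27 in TSC1, so TSC1 replicates 1 and 2 lay above the WT range and replicate 3 just below it. With Lhx8 left out it was -0.54, -0.8 and -0.92 in WT and -0.39, -0.42 and -1.06 in TSC1, a shift of the mean by 0.13 in place of 0.76. For Gsx2 less Nkx2-1, without the Dlx genes, it was -1.49, -2.08 and -2.28 in WT and -0.42, -0.59 and -2.8 in TSC1. The mean shifted by 0.68, with TSC1 replicate 3 below the WT range and with 10 to 27 counts per library for Gsx2. The difference between the lateral and medial genes was not tested.

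The spread between the TSC1 mice cut across both groups. TSC1 replicate 3 was at 1.15 times the mean TPM of TSC1 replicates 1 and 2 for Dlx1, 1.18 times for Dlx2, 1.28 times for Dlx5, 1.08 times for Gsx2 and 1.03 times for Lhx6. It was at 4.14 times that mean for Dlx6 and at 6.03 times for Nkx2-1. Among the lateral and pan-subpallial genes, only Dlx6 was thus uneven over the TSC1 mice, and Gsx2, the lateral one, was even. Among the medial genes, Nkx2-1 and Lhx8 were uneven and Lhx6 was even.

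The summed levels of marker genes of choroid plexus and of striatal projection neurons were also uneven over the TSC1 mice. The summed TPM of 5 choroid plexus genes (Ttr, Otx2, Folr1, Kcnj13 and Aqp1) was 1176 to 2466 in WT and 32.7, 110 and 866 in TSC1 replicates 1, 2 and 3. Nearly all of that sum was Ttr, the transthyretin gene, at 1142 to 2411 TPM in WT and at 23.9, 102 and 843 TPM in TSC1. The means of the other 4 were also lower in TSC1 than in WT, by less, as for Otx2 (5.09 TPM in WT and 1.76 in TSC1) and Kcnj13 (6.88 and 2.87 TPM). The summed TPM of 10 markers of striatal projection neurons was 310 to 412 in WT and 112, 122 and 242 in TSC1. In both sums TSC1 replicate 3 lay nearest to WT, as in Dlx6, Nkx2-1 and Lhx8, and the part of tissue composition in those values was not tested. Not every striatal marker was uneven. TSC1 replicate 3 was at 0.794 times the mean TPM of TSC1 replicates 1 and 2 for Drd1a, 1.11 times for Gpr6 and 1.21 times for Rgs9. For the remaining striatal markers it was at 1.77 times (Ppp1r1b) to 4.81 times (Tac1). None of the 5 choroid plexus genes and none of the 10 striatal genes was called by edgeR, with 5 and 9 lower at an unadjusted p below 0.05, 3 and 3 lower by DESeq2 and 2 and 4 lower by limma. Without TSC1 replicate 3, 5 and 8 were called lower. The smallest p-values were those of Aqp1 (log2 fold change -1.89, edgeR adjusted p = 0.061) and Folr1 (-2.06, adjusted p = 0.0637) in choroid plexus and, among the striatal genes named here, that of Gpr6 (-1.60, adjusted p = 0.0517).

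Hypothalamus borders the telencephalon and also holds Nkx2-1, Dlx, Lhx6 and Lhx8 cells. Its 10 markers summed to 3.48 to 7.55 TPM in WT and to 3.7, 2.33 and 10.4 TPM in TSC1 replicates 1, 2 and 3. The groups overlapped, but TSC1 replicate 3 lay above every WT library and above both other TSC1 libraries. Most of its sum was 1 gene, Fezf1, at 6.67 TPM there and at 0.92 to 4.29 TPM in WT. Otp was also highest in that library (1.67 TPM). Pomc was lowest there (0.9 TPM), and Sim1 (0.26 TPM) lay inside its WT range. Rax and Hmx2 were at 0 in all 6 libraries. The part of hypothalamus in the values of the 8 genes was not tested. The 4 measured thalamic markers summed to 3.8 to 6.96 TPM in WT and 3.41 to 4.67 TPM in TSC1. Of the 2 hypothalamic and 2 thalamic genes tested, 0 were called by edgeR, DESeq2 or limma, and 0 had an unadjusted p below 0.05 (edgeR adjusted p from 0.344 for Gbx2 to 0.992 for Fezf1, with Lef1 at 0.808 and Sim1 at 0.646). Of 20 tested markers of astrocytes, oligodendrocyte lineage, microglia and endothelium, edgeR called 1, Gfap of astrocytes, which was higher (log2 fold change 1.09, SE 0.1304, adjusted p = 0.00683). The astrocyte markers did not rise together, as 3 of the 5 had fitted values below 0 and 2 above (median -0.0757). At an unadjusted p below 0.05 in edgeR, 2 astrocyte markers were lower and 1 was higher. All 5 endothelial markers had fitted values below 0 (median -0.49), 4 of them at an unadjusted p below 0.05, and DESeq2 called 3 lower and limma 0, with the smallest p for Tek (-0.59, edgeR adjusted p = 0.0577) and Cldn5 (-0.49, adjusted p = 0.067). The summed TPM of the endothelial markers was 167 to 224 in WT and 140 to 170 in TSC1, with overlap, and the part of vessels in the values of the 8 genes was not tested. DESeq2 also called 1 of 5 markers of the oligodendrocyte lineage lower, and with TSC1 replicate 3 left out edgeR called 1 of these and 1 endothelial marker lower.

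**Figure D4:**
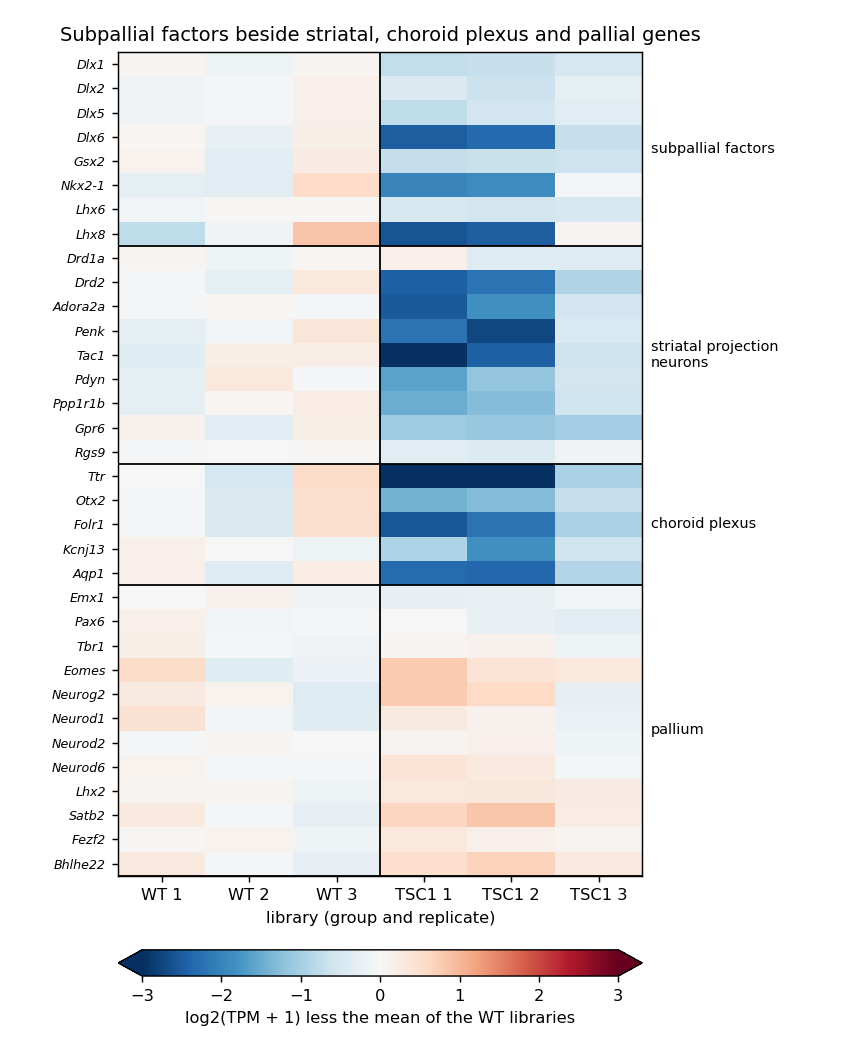
log2(TPM + 1) of each gene less its WT mean (colour, clipped at the ends of the bar) in 6 libraries, with the 8 genes above markers of striatal projection neurons, choroid plexus and pallium. Dlx6, Nkx2-1 and Lhx8 are darkest in TSC1 replicates 1 and 2, as are most striatal and choroid plexus genes.

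Of 8 measured genes that act beside or after the Dlx factors in GABAergic neurons, edgeR called 4 lower and 0 higher, at a median log2 fold change of -0.79. In the fit without TSC1 replicate 3, 5 were called lower. As for Dlx1 and Lhx6, such calls depend on single libraries, and without WT replicate 2, WT replicate 3, TSC1 replicate 1 or TSC1 replicate 2 edgeR called 5, 9, 4 and 4 of all genes lower. Gad1 and Gad2 encode the enzymes that make GABA and Slc32a1 its vesicular transporter. Gad1 was at 92.7 to 112 TPM in WT and at 56.4, 46.3 and 76.1 TPM in TSC1 (log2 fold change -0.83, standard error 0.166, edgeR adjusted p = 0.0479). The log2 fold change of Gad2 was -1.03 ± 0.179 (SE) at an edgeR adjusted p of 0.0318, and that of Slc32a1 was -1.19 ± 0.238 (SE) at 0.0479. Sp9, a zinc finger factor of striatal and interneuron precursors, had -0.95 ± 0.144 (SE) at 0.0214.

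Of 16 factors of the lateral eminence and its neurons, 4 were called lower and 0 higher, with a median of -0.98, and without TSC1 replicate 3 edgeR called 12 lower. Besides Sp9 these were Meis2 (log2 fold change -0.45, SE 0.08895), Foxp2 (-1.001, SE 0.2003) and Bcl11b (-0.56, SE 0.1124), each with an edgeR adjusted p of 0.0479, and all 3 are transcription factors of striatal precursors or neurons. Bcl11b is not confined to the striatum. The study reported lower Bcl11b mRNA by qRT-PCR of newborn telencephalon and lower Bcl11b protein by immunostaining of newborn cortex. How far the values of these 3 genes come from cortex or striatum was not tested. Isl1, needed for striatonigral and cholinergic neurons, was at 13.8 to 28.5 TPM in WT and at 0.75, 2.05 and 11.4 TPM in TSC1 and did not pass (edgeR adjusted p = 0.175).

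Of 9 tested genes of the medial eminence and its interneurons, edgeR called 0, with a median of -0.35 and 7 lower and 0 higher at an unadjusted p below 0.05, while DESeq2 called 3 lower and limma 1. Without TSC1 replicate 3, 5 were called lower by edgeR. The nearest to the threshold were Sox6, a factor of interneuron maturation (log2 fold change -0.35, edgeR adjusted p = 0.0519), and Nxph1, an interneuron-secreted neurexin ligand (-0.64, adjusted p = 0.061). Of 3 tested cholinergic genes, edgeR, DESeq2 and limma called 0, and 1 had an unadjusted p below 0.05, Slc5a7, the choline transporter (-1.02, edgeR adjusted p = 0.186). Ngfr was at -0.30 (edgeR adjusted p = 0.45). edgeR called 2 of the 3 cholinergic genes lower without TSC1 replicate 3.

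Of 4 tested genes of the caudal eminence, 0 were called by edgeR, DESeq2 or limma and 0 had an unadjusted p below 0.05, with a median of -0.12. The smallest p-values belonged to the serotonin receptor gene Htr3a (log2 fold change -0.28, edgeR adjusted p = 0.284) and to Nr2f1 (0.12, adjusted p = 0.652). Sonic hedgehog is the ventral signal that induces Nkx2-1. Of 8 genes of its pathway (Shh itself, receptors, the antagonist Hhip and Gli effectors), edgeR and limma called 0, DESeq2 called 1 lower, and 3 were lower at an unadjusted p below 0.05 (median -0.37). The receptor Smo was at 22.1 to 28.4 TPM in WT and at 17.9 to 19.5 TPM in TSC1 (edgeR adjusted p = 0.0552), and the effector and target Gli1 had a log2 fold change of -0.48 (adjusted p = 0.221).

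Among 5 measured cofactors of LIM-homeodomain proteins such as Lhx6 and Lhx8, 3 had fitted values below 0 and 2 above (median -0.21). Of these, edgeR called Lmo2 lower (log2 fold change -0.62, SE 0.1229, adjusted p = 0.0479), and Lmo3 had a log2 fold change of -0.32 (adjusted p = 0.154). Among 3 measured markers of olfactory bulb interneurons, Th, the rate-limiting enzyme of dopamine synthesis, was called lower at 1 to 7 counts per TSC1 library against 20 to 40 in WT (log2 fold change -3.10, SE 0.5627, edgeR adjusted p = 0.0391), and Calb1 had -0.77 (adjusted p = 0.0843). Fitted values were below 0 for 2 of these markers and above 0 for 1, Calb2. In the pallium, by contrast, 9 of 12 tested factors had a fitted value above 0 and 3 below, with a median of 0.18, where 50.7% of all genes tested were below 0. edgeR and limma called 0 of them, DESeq2 called 2 higher (2.45% of all genes), and 3 were higher at an unadjusted p below 0.05, including Lhx2 (0.27, edgeR adjusted p = 0.107) and Bhlhe22 (0.47, adjusted p = 0.105). With TSC1 replicate 3 left out, edgeR called 2 of the 5 cofactors and 2 of the 3 olfactory bulb markers lower and 3 of the 12 pallial factors higher, where it called 2.61% of all genes higher.

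**Figure D5:**
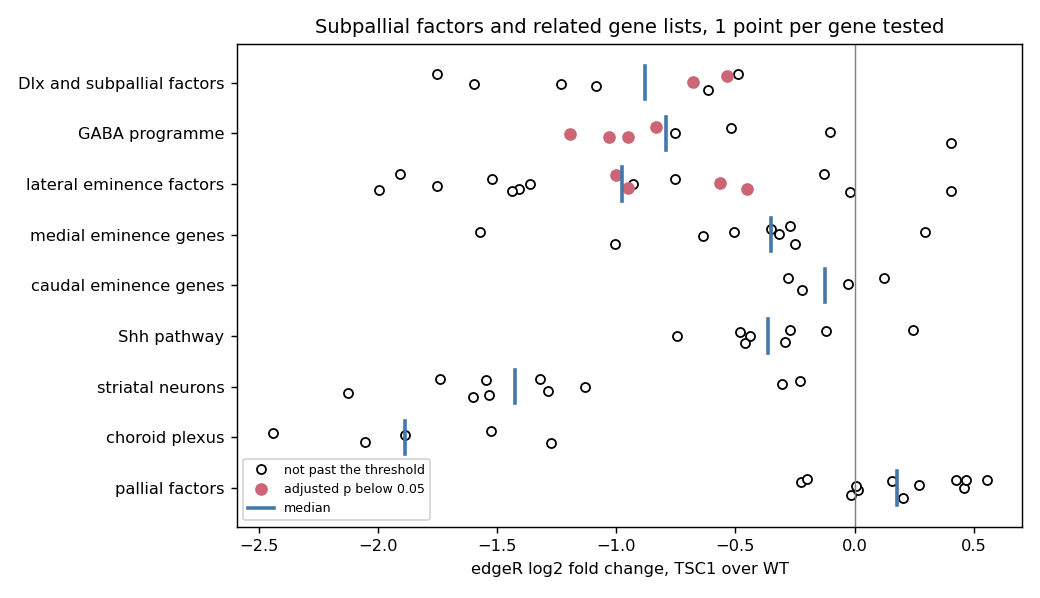
edgeR log2 fold change, TSC1 over WT, of each gene tested (points, horizontal axis) for the 8 genes and 8 related lists, with filled points past an adjusted p of 0.05 and a bar at the median. The choroid plexus and striatal medians, -1.89 and -1.43, lie below that of the 8 genes, and the pallial median lies above 0.

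Genes were ranked by the likeness of their profile to the mean profile of the 4 Dlx genes, which no single Dlx gene needs to share. The measure was the root mean square distance between centred log2 CPM over 6 libraries. It covered 13467 genes with a mean of at least 1 CPM. Nearest to the mean of Dlx1, Dlx2, Dlx5 and Dlx6 were Cxcl14 (distance 0.0567), a chemokine, Gpr153 (0.06), Synpr (0.0695), a synaptic vesicle protein, Klhl13 (0.0788) and Dach1 (0.0789). Cxcl14 was at 31.1 TPM or more in WT and at 14.87, 14.98 and 22.26 TPM in TSC1 (edgeR adjusted p = 0.0411). Synpr also passed (edgeR adjusted p = 0.0402), while Gpr153 (0.0604), Klhl13 (0.0789) and Dach1 (0.0555) did not. These genes were picked by likeness to a mean that was itself lower in TSC1 in the same 6 libraries. Their lower levels in TSC1 follow from that choice, and their adjusted p-values are no independent result. The single Dlx genes were at distances of 0.216 (Dlx1), 0.288 (Dlx2), 0.212 (Dlx5) and 0.682 (Dlx6), and Dlx6 was the farthest of the 4. Among the 13467 genes their ranks were 80 (Dlx1), 230 (Dlx2), 75 (Dlx5) and 11451 (Dlx6).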

How the data were processed

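RNA of 1 mouse per library was sequenced by the authors with an unstranded kit and 101 base paired-end reads. After trimming, the authors used MapSplice2 against mm10 for alignment and RSEM 1.2.12 for quantification. The annotation they quantified on is not given in the sources used here. The deposited expected counts are RSEM's estimated counts per gene and are not normalized, and the deposited TPM divides them by effective length. Rounded counts of all genes entered a quasi-likelihood test in edgeR 4.0.16 (R 4.3.3; filterByExpr, TMM) with group as the only term. The log2 CPM used a prior count of 2. DESeq2 1.42.0, limma 3.58.1 on log2(TPM + 1) and on log2(TPM + 0.1), other normalizations and filters, effective lengths as offsets, a replicate block and fits without each library were alternatives. The statistic of the study, which permutes samples, was not rerun. The effective lengths are RSEM's deposited values in bases. Groups and replicate numbers came from the sample titles. Replicates were independent mice, and p-values measure the spread between them; counting floors cover counting error only. The fits were tested on simulated data. The 8 genes and the gene lists were chosen with earlier results of these data known. Values are given for all 8 genes, for called genes of each list or, where 0 or 1 passed, its 2 smallest p-values (called genes only for glia, microglia and endothelium), for the 5 genes nearest in profile, for Tsc1 and Emx1 as checks, and for Isl1, which was chosen after its values were seen. Vax1, Ldb1, Doc2g, Emx2 and Tcf7l2 of the lists are not analysed here, and some genes that this rule names are not reported here. Python 3.11.15 was used for tables.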

Additional observations from a re-analysis of the deposited data

How the results depend on the processing

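The log2 fold changes of all 8 genes were negative in every alternative that gave a value; with at least 10 counts required in every library, Lhx8 gave none. Other normalizations, filters, effective lengths and both limma fits gave the same 2 calls, Dlx1 and Lhx6. DESeq2 called 4 of the 8, adding Dlx2 (-0.49) and Dlx6 (-1.77), and 636 of all genes, against 212 with edgeR, and dropping the filter gave 346. Leaving out 1 library gave 0 to 7 of the 8 genes and 29 to 799 of all genes. The lowest came without WT replicate 3, TSC1 replicate 1 or TSC1 replicate 2 (0 of the 8 each) and the highest without TSC1 replicate 3. In these fits the log2 fold change ran from -0.76 to -0.61 for Dlx1, -0.59 to -0.39 for Dlx2, -0.76 to -0.50 for Dlx5, -2.83 to -1.40 for Dlx6, -2.64 to -0.82 for Nkx2-1, -0.60 to -0.49 for Lhx6 and -6.60 to -0.93 for Lhx8, whose lower end rests on 0 and 1 counts and depends on the prior count. A block for replicate number in edgeR gave 6 of the 8 (adding Dlx2 at -0.49, Dlx5 at -0.63, Dlx6 at -1.93 and Nkx2-1 at -1.499), against a background of 1.99%, and 551 of all genes. Deviations of same-numbered mice correlated across genes at 0.267, -0.133 and 0.318 for replicates 1, 2 and 3. Those of differently numbered mice correlated at -0.394 to 0.211. With 3 mice per group these values cannot settle whether the numbers pair the mice. The labels name no pairs, and the main fit used no block. The cause of these changes was not tested. Gsx2, at 10 to 27 counts per library, and Lhx8, at 0 to 103, had the fewest counts of the 8 genes.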
